A study of Homo sapiens with 2 samples.

Results

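Promoter peaks of protein-coding genes that were listed as common to the control and the NR2E3-depleted HepG2 cells are described here. HepG2 is an established human liver cancer cell line, and FAIRE-seq recovers the DNA that crosslinked proteins hold least, which favours open chromatin. Cells received lentiviral particles with a scrambled small hairpin RNA (control) or with a small hairpin RNA against NR2E3, an orphan nuclear receptor. Each group had 1 library and FAIRE does not measure the NR2E3 transcript, so no difference between the libraries has a replicate check. From the common list, 3127 peaks were taken, those that the deposited annotation classed as promoter-TSS of a protein-coding gene. They belonged to 3016 genes and made up 5.57% of the 56159 peaks in the 3 deposited lists, 21.8% of the 14368 common peaks and 90.8% of the 3445 common promoter peaks. Of the other common promoter peaks, 314 belonged to other gene types and 4 lay on chromosome M, which was left out. A single common promoter peak was listed for 2913 of the genes, and more than 1 for the remaining 103.

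A promoter is the stretch of DNA around a transcription start site (TSS) where the transcription machinery assembles, and in active genes it is usually kept free of nucleosomes. Most promoters of broadly used genes are rich in CpG dinucleotides and hold short words that general factors bind. Among these are the GC box of Sp1, the CCAAT box of NFY and the words of the ETS family, NRF1, YY1 and CREB. Promoters of histone genes and of many genes restricted to 1 tissue more often carry a TATA box, which fixes the start site.

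The sequences below cover 200 bp around the centre of 6 peaks, in hg38 and in the direction of transcription. Each was the highest-scoring common promoter peak that held a given word. Capitals mark the words searched on both strands, which were GGGCGG (Sp1), CCAAT (NFY), CCGGAA (ETS), GCATGCGC (NRF1), AAGATGG (YY1), TGACGTCA (CRE, bound by CREB) and, for the TATA box, TATAAA. The PABPN1 window (chr14:23321045-23321244, plus strand) had the highest score of all and held 3 NFY words and 1 Sp1 word. C14orf119 (chr14:23095288-23095487, plus strand) was shown for its ETS word, SDR39U1 (chr14:24442721-24442920, minus strand) for its NRF1 word and PSMB5 (chr14:23035111-23035310, minus strand) for 2 YY1 words. FAM177A1 (chr14:35046049-35046248, plus strand) held the CRE, with 4 Sp1 words, and HNRNPC (chr14:21269606-21269805, minus strand) held a TATAAA word. The HNRNPC window was centred 226 bp upstream of the TSS, so its TATAAA lay further upstream than the usual place of a TATA box.
PABPN1: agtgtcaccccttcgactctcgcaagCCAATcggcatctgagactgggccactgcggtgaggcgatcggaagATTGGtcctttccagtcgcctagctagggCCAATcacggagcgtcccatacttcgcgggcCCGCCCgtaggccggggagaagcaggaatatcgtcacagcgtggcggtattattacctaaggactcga
C14orf119: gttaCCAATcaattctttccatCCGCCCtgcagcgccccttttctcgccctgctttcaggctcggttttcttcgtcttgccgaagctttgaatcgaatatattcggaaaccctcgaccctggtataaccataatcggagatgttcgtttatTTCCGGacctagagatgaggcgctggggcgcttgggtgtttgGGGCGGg
SDR39U1: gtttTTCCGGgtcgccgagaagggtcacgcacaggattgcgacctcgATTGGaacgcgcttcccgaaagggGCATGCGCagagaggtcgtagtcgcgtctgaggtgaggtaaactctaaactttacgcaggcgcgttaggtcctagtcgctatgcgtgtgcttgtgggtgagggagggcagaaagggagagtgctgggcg
PSMB5: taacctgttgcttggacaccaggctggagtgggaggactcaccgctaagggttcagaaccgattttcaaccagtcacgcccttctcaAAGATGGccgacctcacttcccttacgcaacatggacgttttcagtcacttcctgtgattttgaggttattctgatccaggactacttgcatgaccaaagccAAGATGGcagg
FAM177A1: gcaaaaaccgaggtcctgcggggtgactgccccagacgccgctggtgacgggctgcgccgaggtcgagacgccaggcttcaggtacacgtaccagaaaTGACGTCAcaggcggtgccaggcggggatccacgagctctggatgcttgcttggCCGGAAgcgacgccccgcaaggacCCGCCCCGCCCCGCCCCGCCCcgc
HNRNPC: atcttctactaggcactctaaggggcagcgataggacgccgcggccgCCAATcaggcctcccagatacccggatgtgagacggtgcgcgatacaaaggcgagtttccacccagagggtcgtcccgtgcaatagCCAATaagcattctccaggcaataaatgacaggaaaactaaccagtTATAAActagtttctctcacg

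A second set shows the highest-scoring peak of gene classes that differ in sequence. RPL27 (chr17:42998034-42998233, plus strand) encodes a protein of the large ribosomal subunit, APOM (chr6:31655676-31655875, plus strand) an apolipoprotein, and FOXA2 (chr20:22585534-22585733, minus strand) a transcription factor of the liver lineage. H2AC21 (chr1:149887964-149888163, minus strand) encodes a histone H2A, and its window held 4 NFY words and a TATAAA word. ABHD17B (chr9:71911320-71911519, minus strand) encodes a depalmitoylase, and had the highest score outside the 6 peak-rich chromosomes 2, 6, 14, 16, 17 and 20. H2AC21 and ABHD17B were chosen after their values were seen. The FOXA2 window held none of the 7 words.
RPL27: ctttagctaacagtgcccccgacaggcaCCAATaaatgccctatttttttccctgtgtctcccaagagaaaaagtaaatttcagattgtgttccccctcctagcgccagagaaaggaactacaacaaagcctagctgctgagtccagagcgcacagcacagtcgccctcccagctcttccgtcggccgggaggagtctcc
APOM: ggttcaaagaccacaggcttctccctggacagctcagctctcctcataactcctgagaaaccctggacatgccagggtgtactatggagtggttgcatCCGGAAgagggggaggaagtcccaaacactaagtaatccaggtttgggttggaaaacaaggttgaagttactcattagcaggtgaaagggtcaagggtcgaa
FOXA2: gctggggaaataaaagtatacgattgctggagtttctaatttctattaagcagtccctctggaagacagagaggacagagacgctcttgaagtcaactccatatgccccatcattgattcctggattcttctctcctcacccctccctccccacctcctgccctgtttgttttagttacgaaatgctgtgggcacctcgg
H2AC21: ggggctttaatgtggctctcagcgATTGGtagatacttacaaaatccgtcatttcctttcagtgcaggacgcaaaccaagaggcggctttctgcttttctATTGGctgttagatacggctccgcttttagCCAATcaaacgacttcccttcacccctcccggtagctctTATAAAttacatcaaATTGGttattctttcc
ABHD17B: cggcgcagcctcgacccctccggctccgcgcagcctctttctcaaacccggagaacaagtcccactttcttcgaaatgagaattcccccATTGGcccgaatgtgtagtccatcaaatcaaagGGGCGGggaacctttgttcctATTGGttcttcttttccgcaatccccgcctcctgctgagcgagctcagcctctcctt

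Peak scores of the common promoters were low and close together. The score in the common list is on the scale of the control library. Scores under 10 were whole multiples of 0.407 within 0.0051, so 0.407 was taken as 1 sequenced tag. The median was 6.91 (quartiles 6.10 and 8.54, range 4.47 to 32.5), which corresponds to 17 tags, with an exact Poisson 95% interval of 9.90 to 27.2 tags. A single peak was therefore measured with low precision, and the order of neighbouring scores carries no information. This interval and those below cover counting error only, since amplified reads are not independent molecules. The 770 control-specific promoter peaks of protein-coding genes had a median score of 6.10 and a highest score of 10.2. The 10913 common peaks outside promoters had a median of 6.51. Scores of the depleted-specific list are on another scale and were not set beside these.

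The 5 highest scores all lay on chromosome 14. The promoter of PABPN1, which encodes a poly(A)-binding protein of the nucleus, had 32.5 (80 tags) at chr14:23320994-23321294, centred 313 bp upstream of the TSS. C14orf119 had 27.2 (67 tags), 118 bp upstream and 369 bp from the divergent start site of ACIN1. EMC9, a subunit of the endoplasmic reticulum membrane protein complex, had 26.4, PNN, a nuclear speckle protein, 26.0 and SDR39U1 22.8. All 5 windows held an NFY word. Of the 25 highest-scoring common promoters, 20 lay between 20 and 45 Mb of chromosome 14. That segment held 114 of the 184 common promoter peaks of the chromosome, with a median score of 10.2 against 6.91 for all others.

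Common promoter peaks were spread unevenly over the chromosomes. Of 20037 protein-coding genes, 3001 had a common promoter peak, which is 15.0% (exact Clopper-Pearson 95% interval 14.5 to 15.5%). The share was 36.7% on chromosome 20, 29.3% on chromosome 2, 26.1% on chromosome 14, 24.1% on chromosome 6, 24.0% on chromosome 16 and 21.1% on chromosome 17. Across these 6 chromosomes, called dense here, 1428 of 5468 genes (26.1%, 24.96 to 27.3%) had one, against 1573 of 14569 genes on the other chromosomes (10.8%, 10.3 to 11.3%). The intervals did not overlap, but the 6 chromosomes were set apart for their peak density in earlier results of these data, so this is a description. Chromosome 19 followed with 15.5%. On chromosome X, 4 of 848 genes (0.472%, 0.129 to 1.20%) had a common promoter peak.

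The specific lists differed in this respect. A control-specific promoter peak was listed for 747 genes (3.73% of all), at 6.38% on the dense and 2.73% on the other chromosomes. A depleted-specific promoter peak was listed for 2391 genes (11.9% of all), at 13.0% and 11.5%. On chromosome X, a depleted-specific promoter peak was listed for 40 genes (4.72%) and a control-specific peak for 2. Scores moved with chromosome too, with a median of 7.73 for common promoters on the dense chromosomes and 6.51 on the others, whereas common peaks outside promoters had a median of 6.51 on both. The cause of these differences was not tested. The main shares and most of the gene lists below are given with and without the dense chromosomes.

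**Figure D1:**
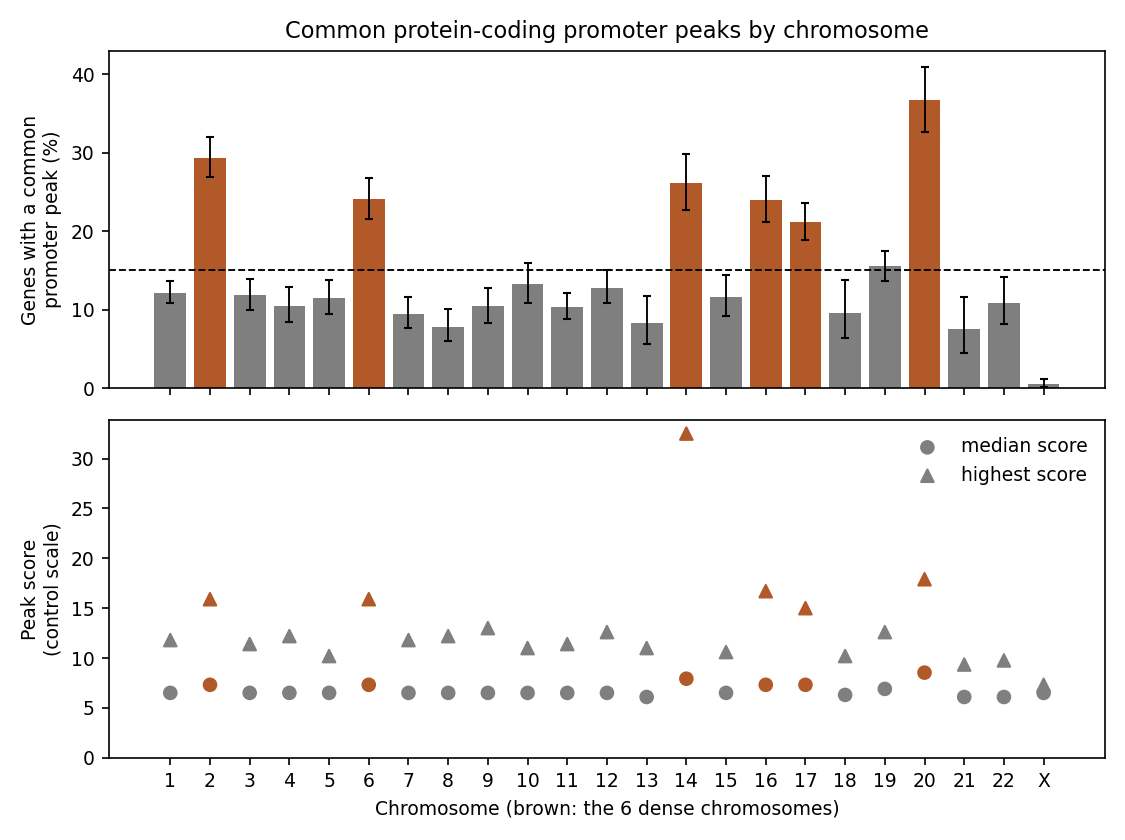
Share of protein-coding genes with a common promoter peak on each chromosome (top, bars, with exact 95% intervals and a dashed line at 15.0% for all genes) and the median and highest score of the common promoter peaks on the control scale (bottom, circles and triangles). The 6 dense chromosomes, in brown, stand above the line, chromosome X is at 0.472%, and the score of 32.5 on chromosome 14 stands apart.

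Common promoter peaks sat just upstream of the start site. The median distance of the peak centre from the TSS was -92 bp (interval of the median -98 to -88), with quartiles at -179.5 and -24 bp, and 83.2% of the centres lay upstream. Within 100 bp of the TSS lay 50.3% of the centres and within 200 bp 76.9%. The depleted-specific promoters had a median of -84 bp and 75.5% within 200 bp, and the control-specific ones a median of -102 bp and 59.4%. The lists also differed far from the start site, where 4.57% (3.87 to 5.36%) of the common, 9.70% (8.57 to 10.9%) of the depleted-specific and 19.7% (16.98 to 22.7%) of the control-specific promoter peaks were centred 500 to 1000 bp upstream. The promoter class ends about 1000 bp upstream, so this tail is bounded by the annotation. Just inside that bound lay 30 common promoter peaks, 900 to 1000 bp upstream, and just outside it, from 1000 to 1100 bp, 29 common peaks of protein-coding genes in other classes. The annotation gave 80 common promoter peaks a centre over 100 bp downstream of the nearest TSS.

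**Figure D2:**
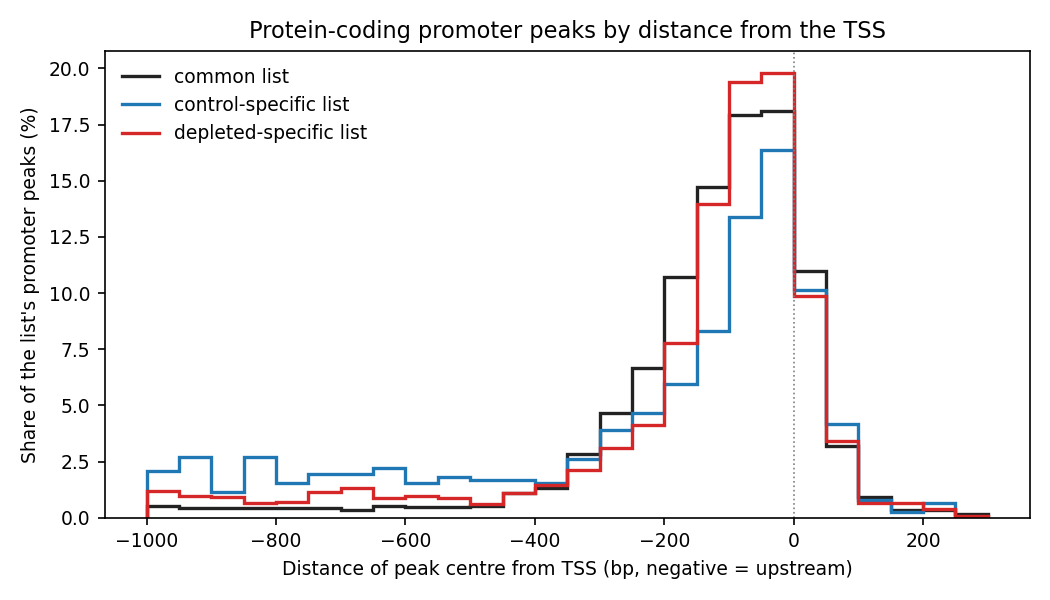
Share of the protein-coding promoter peaks of each list (vertical axis, percent, in bins of 50 bp) by the distance of the peak centre from the TSS (horizontal axis, bp, negative upstream). All 3 lists peak within 100 bp upstream, and the control-specific list has the highest tail from 500 to 1000 bp upstream.

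Most common promoters were CpG-rich. A window of 200 bp was called CpG-rich where its GC content was at least 50% and its ratio of observed to expected CpG at least 0.6, and 2460 of the 3127 windows were (78.7%, 77.2 to 80.1%). The share was 54.7% (51.1 to 58.2%) in the control-specific and 76.6% (74.8 to 78.2%) in the depleted-specific promoters. It followed position, at 85.3% for peaks centred within 100 bp of the TSS, 78.4% from 100 to 300 bp upstream and 49.7% further upstream. The median GC content of 63.0% lay between those of the control-specific (59.0%) and depleted-specific (65.5%) promoters. For a comparison with all genes, windows of the same length were centred 92 bp upstream of the start sites of 19365 protein-coding genes of GENCODE. Placed in this way, 85.8% (84.5 to 87.0%) of the 2993 genes with a common promoter peak were CpG-rich, against 64.8% of all genes and 56.1% of genes in none of the 3 lists. Genes with a depleted-specific promoter peak had 86.4% (84.98 to 87.8%) and those with a control-specific one 80.1% (77.005 to 82.9%), so the high share was not particular to the common list. Read the other way, 2568 of 12553 CpG-rich promoters (20.5%) and 425 of 6812 other promoters (6.24%) had a common peak.

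Of the 7 words, NFY differed most in share, in percentage points, between genes with a common promoter peak and all genes. CCAAT occurred within 100 bp of the peak centre in 42.6% (40.9 to 44.4%) of them, against 28.1% (24.9 to 31.4%) of control-specific and 33.0% (31.2 to 34.9%) of depleted-specific promoters. NFY is a trimeric factor that binds the CCAAT box of many cell cycle, histone and lipid synthesis genes. In windows placed by the start site, it was held by 44.4% (42.6 to 46.2%) of the genes with a common promoter peak, 30.2% (29.6 to 30.9%) of all genes and 26.7% of genes in no list. Among CpG-rich windows alone the shares were 43.6%, 29.4% and 23.8%, and off the dense chromosomes 48.6% against 30.2% of all genes. The share of genes with a common peak rose with the number of NFY words in the window, from 12.3% (11.8 to 12.9%) with none through 18.8% with 1 and 28.4% with 2 to 38.8% (34.4 to 43.2%) with 3 or more, which is 190 of 490 genes. The median score of the common promoters moved little along the same steps, from 6.91 with none or 1 word to 7.32 with 2 and 7.73 with 3 or more.

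The Sp1 word was the most frequent. GGGCGG was held by 56.6% (54.9 to 58.4%) of the common, 40.9% (37.4 to 44.5%) of the control-specific and 58.3% (56.4 to 60.3%) of the depleted-specific promoters, so that the common and depleted-specific shares overlapped in their intervals. Peak-centred windows do not always lie where those of all genes were placed, and the comparison turned on this. Against the 56.9% of all genes, the peak-centred share was no higher, whereas windows placed by the start site gave 66.2% (64.4 to 67.8%) for genes with a common peak and 71.4% (69.5 to 73.2%) for genes with a depleted-specific one. Among CpG-rich windows the order turned, with 71.3% (69.5 to 73.0%) for genes with a common peak, 75.9% for all genes and 77.2% for genes in no list.

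For the other words, shares in the specific lists were mostly close to those in the common list. In windows placed by the start site, the ETS word, which GABPA and related activators bind, was held by 28.5% (26.9 to 30.2%) of genes with a common peak against 18.1% (17.6 to 18.7%) of all genes. It was held by 28.4% (25.2 to 31.8%) of genes with a control-specific and 25.6% (23.8 to 27.4%) of genes with a depleted-specific peak. The word of NRF1, an activator of genes for mitochondrial proteins, was at 5.88% against 3.74% of all genes, with 6.02% and 6.08% in the specific lists. The CRE was at 3.74% against 2.54% of all genes, with 4.42% and 3.19% in the specific lists. YY1 was at 3.21% (2.61 to 3.90%) against 2.48% (2.27 to 2.71%), with overlapping intervals. These windows, centred 92 bp upstream, held few bases downstream of the TSS. There YY1 words in common peaks were densest, at 11.4 per 10 kb in the first 20 bp, so YY1 words at the TSS were not compared. Around peak centres, 4.64% (3.93 to 5.43%) of common promoters held the YY1 word, with 3.77% and 4.81% in the specific lists. For all genes no such share exists. TATAAA went the other way in windows placed by the start site, at 4.18% (3.49 to 4.96%) against 7.69% of all genes and 9.38% of genes in no list. It was as low in the control-specific (3.75%) and depleted-specific (3.06%) genes. Among CpG-rich windows alone, TATAAA was at 2.80% (2.20 to 3.52%) for genes with a common peak and 2.99% for all genes, and the intervals for NRF1 (6.50% and 5.29%) and CRE (4.09% and 3.39%) overlapped too. ETS stayed apart there, at 30.8% (29.1 to 32.7%) against 24.4% (23.7 to 25.2%). Any of the 6 words other than TATAAA was found in 83.6% (82.3 to 84.9%) of the common promoter peaks, searched around their centres, and in 76.9% of all promoters, searched around the start site, and at least 3 different ones in 8.99% and 5.64%. Words rarely shared bases: of 798 peaks with both an Sp1 and an NFY word, 28 had an overlap of such words.

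**Figure D3:**
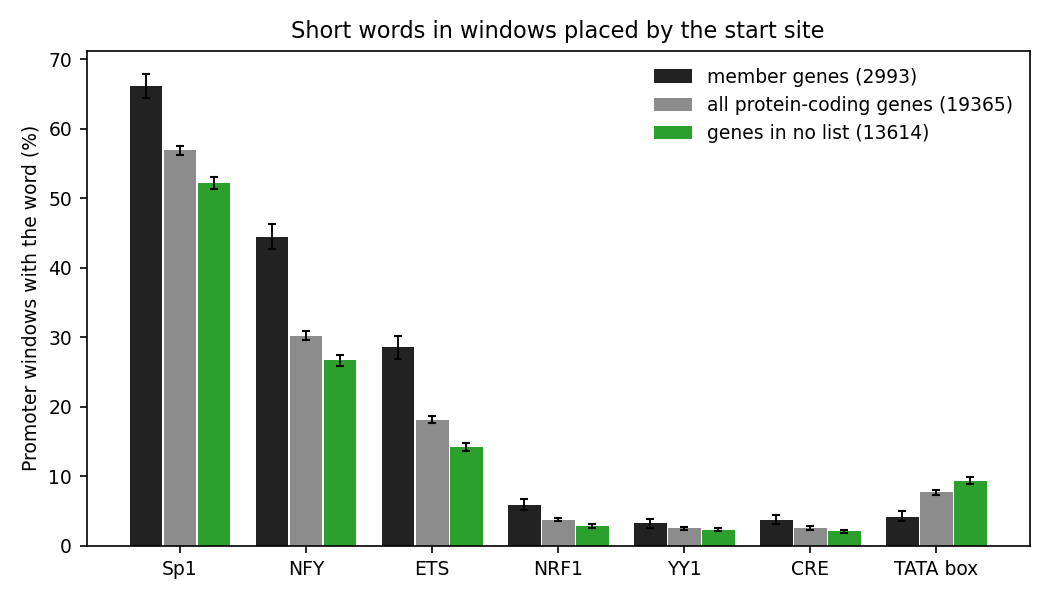
Share of 200 bp promoter windows placed by the start site that hold each word (vertical axis, percent, bars with exact 95% intervals) for the 2993 genes with a common promoter peak, all 19365 protein-coding genes and the 13614 genes in none of the lists. The NFY bars read 44.4%, 30.2% and 26.7%, and the TATA box bars run in the opposite order.

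Words of factors tied to the liver or to Wnt signalling were rare in these windows. The FOXA word TGTTTAC was held by 1.54% (1.13 to 2.04%) of genes with a common peak and 1.64% of all genes. CAAAGTCCA (HNF4) was at 0.234% against 0.258% and CTTTGAT (TCF/LEF, the partners of beta-catenin) at 1.04% (0.705 to 1.47%) against 1.34%. All these intervals overlapped. BANP, which binds TCTCGCGA in CpG islands, was at 2.54% (2.01 to 3.17%) against 1.46% (1.29 to 1.64%), and the AP-1 word TGANTCA at 2.04% (1.56 to 2.61%) against 3.88%. The genes of the specific lists were like the common ones in both, with 2.81% and 2.598% for BANP and 2.54% and 2.26% for AP-1. Among CpG-rich windows the intervals overlapped, with 2.76% against 2.10% for BANP and 1.79% against 1.85% for AP-1. CACGTG, the E-box, was at 7.72% against 6.99%, and TTGCGCAA (C/EBP) at 0.2005% against 0.145%, with overlapping intervals. An exact word is a strict search, so a share counts these letters and not bound factors.

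CpG-rich and other common promoters differed in most of these words. NFY words were in 42.8% (40.9 to 44.8%) of the 2460 CpG-rich and 41.7% (37.9 to 45.5%) of the 667 other common promoter peaks, with overlapping intervals. Sp1 words were in 64.6% and 27.4%, ETS words in 28.1% and 10.3% and NRF1 words in 6.50% and 1.95%. TATAAA was in 2.398% (1.83 to 3.08%) of the CpG-rich and 7.196% (5.35 to 9.43%) of the other peaks.

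The words lay at differing distances from the start site. NFY words lay at a median of -95 bp, and 39.4% of them fell between 120 and 40 bp upstream, where 24.9% of the searched bases lay. Per 10 kb searched, NFY words reached 64.3 in the bin 80 to 60 bp upstream and fell to 18.3 in the first 20 bp downstream. Sp1 words were densest at 60 to 40 bp upstream, with 93.6 per 10 kb. ETS words lay closer, at a median of -44.5 bp, with 36.8% within 40 bp of the TSS against 19.8% of the searched bases. YY1 words were densest just downstream of the TSS, with 11.4 per 10 kb in the first 20 bp and 9.29 from 20 to 40 bp. In the 20 bp upstream of the TSS there were 0.303 per 10 kb. The median position of YY1 words was 0 bp, and 39.4% lay within 40 bp of the TSS. Of the 117 TATAAA words, on either strand, 26.5% lay 35 to 20 bp upstream, where 4.57% of the searched bases lay.

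**Figure D4:**
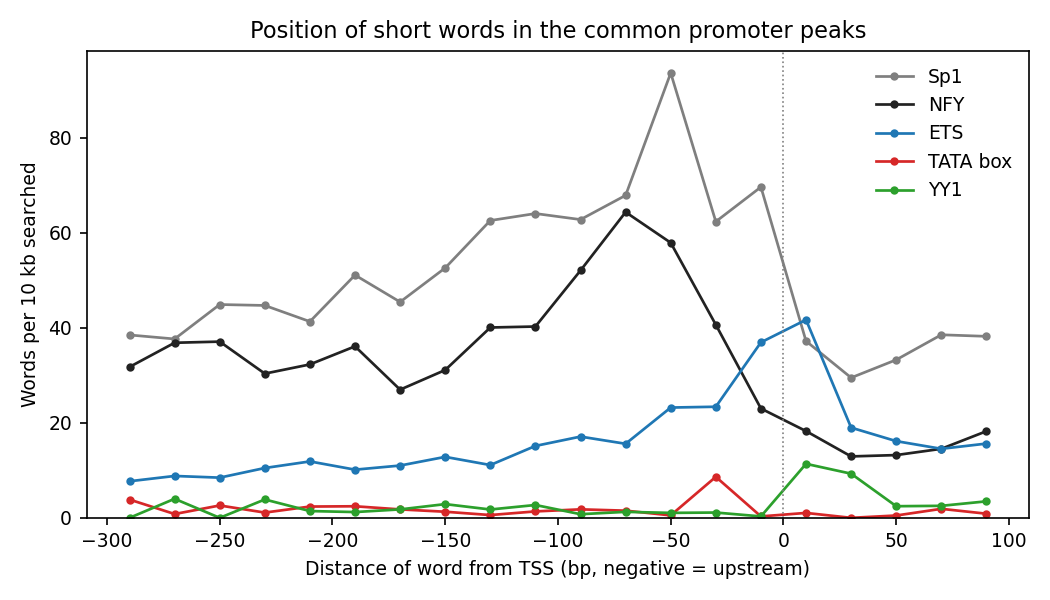
Words per 10 kb of searched sequence in the common promoter peaks (vertical axis) by distance from the TSS in bins of 20 bp (horizontal axis, negative upstream). NFY is highest 80 to 60 bp upstream, Sp1 60 to 40 bp upstream, ETS and YY1 in the first 20 bp downstream, and the TATA box 40 to 20 bp upstream.

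A pair of genes that start close together on opposite strands can share 1 open promoter. Of genes with a common promoter peak, 13.5% (12.3 to 14.8%) had the start site of another protein-coding gene on the opposite strand within 1000 bp in a divergent arrangement, against 9.33% (8.92 to 9.74%) of all genes and 9.18% (8.05 to 10.4%) of genes with a depleted-specific peak. For genes with a control-specific peak it was 10.6% (8.46 to 13.0%), which overlapped the interval of the common ones. Among CpG-rich promoters the shares were 13.8% (12.5 to 15.2%) and 12.7% (12.1 to 13.3%) and their intervals overlapped. KARS1, which encodes lysyl-tRNA synthetase, and TERF2IP, a telomere protein, start 108 bp apart, and the chaperonin genes HSPD1 and HSPE1 539 bp apart.

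Genes that every cell uses to splice RNA and to make and degrade proteins often had common promoter peaks. Against the 15.0% of all genes, the share was 48.9% (34.1 to 63.9%) for 47 spliceosome components, 48.8% (32.9 to 64.9%) for 41 translation factors, 48.6% (31.9 to 65.6%) for 37 aminoacyl-tRNA synthetases, 48.4% (30.2 to 66.9%) for 31 proteasome subunits and 48.1% (36.7 to 59.6%) for 79 cytoplasmic ribosomal proteins. None of these intervals reached 15.0%. They lean on the dense chromosomes to differing degrees: off these, where 10.8% of all genes had a common peak, the shares were 28.6%, 37.0%, 40%, 26.7% and 36.7% in the same order. For the proteasome this was 4 of 15 genes, with an interval of 7.79 to 55.1% that holds both shares of all genes. Some genes of these lists had a depleted-specific but no common promoter peak, as had 2221 of all 20037 genes. They numbered 7 of 47 spliceosome components, 8 of 41 translation factors and 5 of 37 aminoacyl-tRNA synthetases. For proteasome subunits it was 11 of 31 and for cytoplasmic ribosomal proteins 14 of 79.

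Among ribosomal proteins, RPL27 led with a score of 12.2 (30 tags), followed by RPL23 with 10.6 and RPS15A with 10.2, and the list ran down to 4.88. Of their 38 peaks, 34 were CpG-rich, 18 held an ETS word, 15 an Sp1 word and 13 an NFY word. Among all common promoter peaks, 78.7% were CpG-rich, 24.3% held an ETS word, 56.6% an Sp1 word and 42.6% an NFY word. Sp1 and NFY words were thus no more frequent in the ribosomal peaks than among all common promoter peaks. PSMA6 and PSMB5, subunits of the proteasome core, had 19.1 (47 tags, 79 bp upstream) and 16.7 (41 tags, 10 bp downstream), and PSMB3 had 12.2. All 3 lie on dense chromosomes, as do 11 of the 15 proteasome genes with a common peak. HNRNPC, which binds nascent transcripts, had 17.5, and the U1 and Sm proteins SNRPC and SNRPG had 12.6 and 11. EARS2, the mitochondrial glutamyl-tRNA synthetase, had 13.0, and KARS1 and FARSB, which charge lysine and phenylalanine, had 7.73 and 7.32. GSPT1, a translation termination factor, and EIF2S2, a subunit of eIF2, had 12.2 each, and EEF1B2, an elongation factor, 11.4.

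**Figure D5:**
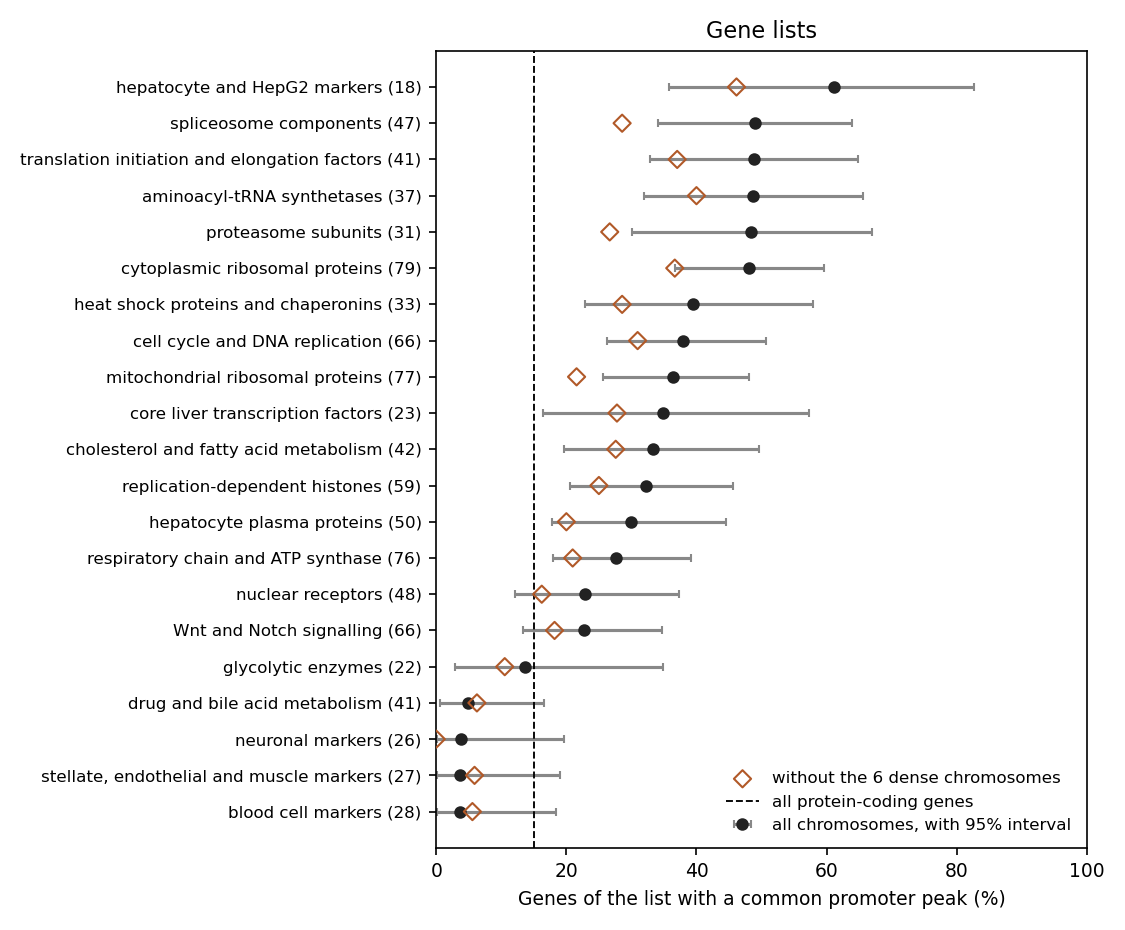
Share of each gene list with a common promoter peak (horizontal axis, percent, filled circles with exact 95% intervals, list size in brackets) and the same share without the 6 dense chromosomes (open diamonds), with a dashed line at 15.0% for all protein-coding genes. Lists for splicing, translation and protein degradation lie near 48%, and markers of other cell types lie below 4%.

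Lists of mitochondrial proteins had lower shares than these, with intervals that overlapped theirs. Of 77 mitochondrial ribosomal proteins, 28 had a common promoter peak (36.4%, 25.7 to 48.1%), led by MRPL52 with 15.9, MRPS9 with 11.4 and MRPL33 with 10.6. Off the dense chromosomes the share was 21.6%. Of 76 subunits of the respiratory chain and ATP synthase, 21 had one (27.6%, 17.99 to 39.1%), with 10.6 for ATP5F1E and 10.2 for ATP5MC1, both of ATP synthase, and 9.76 for UQCRC2, of complex III. NRF1 words were in 6 of their 22 peaks, beside 5.53% (4.76 to 6.39%) of all common promoter peaks.

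Cell cycle and histone genes with a common promoter peak often carried NFY words. Of 66 cell cycle and DNA replication genes, 25 had a common peak (37.9%, 26.2 to 50.7%). Off the dense chromosomes the share was 31.0% (17.6 to 47.1%). Of all 26 peaks of the list, 17 held an NFY word, beside 42.6% of all common promoter peaks. PCNA, the sliding clamp of DNA polymerase, had 15 (37 tags, 26 bp upstream) and a second promoter peak with 10.6, MCM3, a subunit of the replicative helicase, had 12.2 and CDC6, which loads that helicase, 10.2. Of 59 replication-dependent histone genes, 19 had a common peak (32.2%, 20.6 to 45.6%). Most of them lie on chromosome 6, where 24.1% of all genes had one, a share within that interval. Off the dense chromosomes, 2 of 8 histone genes had one (25%, 3.19 to 65.1%). NFY words were in 15 of these 19 peaks and TATAAA words in 11, beside 42.6% and 3.42% of all common promoter peaks. The histone windows had a median GC content of 41.5% and 4 of them were CpG-rich. H2AC21, shown above, had 11.8 (29 tags), H2BC15 11 and H2BC5 10.2. Histone genes are near copies of each other, and reads shared between copies could be assigned to either.

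Chaperone genes followed with 13 of 33 (39.4%, 22.9 to 57.9%), led by HSPA1B of the inducible HSP70 family with 11.8, HSPD1 with 11.4 and the disulfide isomerase PDIA6 with 10.2. HSPA1B has a near-identical copy beside it, which makes its value uncertain. Off the dense chromosomes the share of chaperone genes with a common peak was 28.6% (11.3 to 52.2%). NFY words were in 9 and Sp1 words in 12 of the 14 chaperone peaks, beside 42.6% and 56.6% of all common promoter peaks. Of 42 genes of cholesterol and fatty acid metabolism, 14 had a common peak (33.3%, 19.6 to 49.5%), with 9.35 for INSIG2, which retains the sterol sensor in the endoplasmic reticulum, 8.95 for FDPS, which makes farnesyl diphosphate, and 8.13 for ACACA, which makes malonyl-CoA. For cholesterol and fatty acid metabolism the share off the dense chromosomes was 27.6% (12.7 to 47.2%). Glycolytic enzymes were near the share of all genes, with 3 of 22 (13.6%, 2.91 to 34.9%). These were ALDOA with 8.95, LDHA with 8.54 and GAPDH with 6.51.

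Hepatocyte markers were frequent among these promoters, although the best-known ones were missing. Of 18 hepatocyte and HepG2 markers, 11 had a common promoter peak (61.1%, 35.7 to 82.7%), among them SERPINA1, which encodes alpha-1-antitrypsin, with 8.95 and APOA2 with 7.73. Off the dense chromosomes, 46.2% (19.2 to 74.9%) of these markers had a common promoter peak. ALB, AFP, TTR, FGB and KRT18 had no promoter peak in any list. AHSG and TF had a control-specific one, all 7 named after their values were seen. Markers of other cell types were near 0, with 1 of 26 neuronal markers (TUBB3, 6.91), 1 of 28 blood cell markers (LYZ, 6.91) and 1 of 27 stellate, endothelial and muscle markers (RGS5, 5.29). The upper bounds of these 3 shares were 19.6%, 18.3% and 19.0%, so none was shown to lie below the share of all genes.

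Of 23 liver transcription factors, 8 had a common promoter peak (34.8%, 16.4 to 57.3%). Off the dense chromosomes the share was 27.8% (9.69 to 53.5%), an interval that holds the 10.8% of all genes there. FOXA2 and FOXA1, pioneer factors of the liver lineage, had 9.35 (23 tags) and 6.91 (17 tags), and the nuclear receptor NR2F1 had 8.95. Among the others, HNF4A and ESRRA had 6.51 each and HHEX and TBX3 5.29 each, all named after their values were seen. Of 50 plasma protein genes, 15 had a common peak (30%, 17.9 to 44.6%), led by APOM with 14.6, APOH with 9.35 and SERPINA1. Of their 16 peaks, 1 was CpG-rich, beside 78.7% of all common promoter peaks. In windows placed by the start site, 3 of the 50 promoters of the whole list were CpG-rich. Off the dense chromosomes, 20% (9.05 to 35.6%) of this list had a common peak, an interval that holds the 10.8% of all genes there. Drug and bile acid metabolism had the lowest share of the lists for liver functions, with 2 of 41 (4.88%, 0.596 to 16.5%). These were ABCC2, an export pump of the canalicular membrane, with 8.13 and NR0B2, a repressor of bile acid synthesis, with 7.32.

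Wnt and Notch genes and nuclear receptors did not stand clear of the share of all genes. Of 66 Wnt and Notch genes, 15 had a common promoter peak (22.7%, 13.3 to 34.7%), led by the Wnt receptor FZD5 with 11.4, the kinase GSK3B of the beta-catenin destruction complex with 11 and the Notch inhibitor NUMB with 8.95. Of 48 nuclear receptors, 11 had one (22.9%, 12.03 to 37.3%), led by RARA and NR2F1 with 8.95 each and NR1D1 with 7.73. Off the dense chromosomes the shares were 18.2% (8.19 to 32.7%) for Wnt and Notch genes and 16.2% (6.19 to 32.0%) for nuclear receptors. Both intervals held the 10.8% of all genes there. JAG1, a Notch ligand, had a common peak of 6.91 (17 tags) 99 bp upstream of the TSS and a depleted-specific one 909 bp upstream. PPARD, a nuclear receptor of fatty acid use, had 7.73 (19 tags), 86 bp upstream, with Sp1 and NFY words. SP1 itself had 8.13 (20 tags), 378 bp upstream. MYC had a control-specific promoter peak only. NR2E3, CTNNB1, which encodes beta-catenin, EP300, DKK1, GNAI1 and HEY1 had no promoter peak in any list.

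A further 4 gene families were chosen by name after the lists were seen. Of 390 olfactory receptor genes, 0 had a common promoter peak (upper bound 0.941%), and of 149 keratins and keratin-associated proteins 2 had one (1.34%, 0.163 to 4.76%), KRTAP3-1 with 6.51 and KRT8 with 5.29. Of 398 solute carriers, 42 had one (10.6%, 7.71 to 13.996%), and off the dense chromosomes the share was 7.83% (4.97 to 11.6%). Of 517 ZNF genes, which mostly encode zinc finger repressors, 105 had one (20.3%, 16.9 to 24.0%), above the share of all genes. ZNF184 was highest at 11.4. Off the dense chromosomes the ZNF share was 18.2% (14.7 to 22.1%), against 10.8% of all genes. Among CpG-rich promoters alone the shares were close, with 84 of 394 ZNF genes (21.3%) against 20.5% of all genes.

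Some genes had several common promoter peaks. AJUBA, a LIM-domain protein of cell junctions, had 4, at 12.6, 11, 8.95 and 8.95. With 3 peaks each followed AP4S1, CFL2, MIA2, NHSL1, NUBPL and SOD2. Apart from NHSL1 and SOD2 on chromosome 6, these genes lie on chromosome 14.

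Most genes with a common promoter peak had no other promoter peak. Of the 3016 genes, 2731 (90.6%, 89.5 to 91.6%) had none in the specific lists. A control-specific promoter peak was listed for 124 of them (4.111%, 3.43 to 4.88%), beside 3.73% of all genes, a depleted-specific one for 171 (5.67%, 4.87 to 6.56%), beside 11.9% of all genes, and both for 10. Without the 6 dense chromosomes, the share with a specific promoter peak in either list was 4.67%, against 9.45% with them. Off these chromosomes, 2.73% of all genes had a control-specific and 11.5% a depleted-specific promoter peak. A site listed as common is not listed again as specific, and the part of this in the lower share was not tested. Counting any specific peak that has the gene as its nearest, 56.5% of the genes had one. For this count and the distances that follow, the share over all genes was not computed. These values therefore cannot be called high or low. Within 1000 bp of the centre of a common promoter peak lay a control-specific peak for 180 (5.76%, 4.97 to 6.63%) and a depleted-specific peak for 244 (7.80%, 6.89 to 8.80%) of the 3127 peaks. Within 500 bp the numbers were 22 and 45.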

How the data were processed

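FAIRE-seq was measured in 1 control and 1 NR2E3-depleted library of HepG2 cells, grouped by the treatment per the labels. Per the labels and the methods, the authors used bcl2fastq 2.17 and Trimmomatic 0.39, aligned reads to hg38 with Bowtie2 2.4.5 and SAMtools 1.14, and called and annotated 300 bp peaks with HOMER at a q-value of 0.05. No correction for input DNA or copy number is stated, nor how peaks were assigned to the common and the specific lists. The deposited score is the authors' scaled tag number per peak. Depth per library is not given in the sources used here.

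Protein-coding promoter-TSS peaks of the common list were taken as deposited. Gene names were matched to RefSeq (GRCh38.p14), 2901 by symbol and 100 by older symbol, with 15 unmatched. Start sites and strand came from GENCODE release 44 (canonical transcripts), and sequence from hg38. Shares carry exact Clopper-Pearson 95% intervals, and medians order-statistic intervals. With 1 library per group no test could be made. Words were searched exactly, and the search and intervals were tested on simulated data.

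The peaks and the 21 gene lists were chosen with earlier results of these data known. The genes named are the 5 with the highest score, up to 3 per list, those with the most peaks, and genes of the study, of which some are not reported here. Sequences shown are the highest-scoring peak in all, with each word and in 3 lists, chromosome 8 skipped. Alternatives covered the chromosomes, score, promoter definition, window and peaks per gene. Windows placed by the start site, the GENCODE gene number and lists without dense chromosomes were added after the data were seen. Calculations used pysam 0.24.0, pandas 2.3.3 and scipy 1.17.1 under Python 3.11.15, and figures matplotlib 3.10.9.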

Additional observations from a re-analysis of the deposited data

How the results depend on the processing

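Leaving out a library was not possible with a single library in each group. No paired analysis was possible because there were no replicates and no test. Of 37 alternatives, 13 kept the value within its interval or within 1.5 times of the count. With scores of at least 10 only, 342 peaks and 1.65% of protein-coding genes were left, with a median distance of -108.5 bp. Without the 6 dense chromosomes, 10.8% of genes had a common promoter peak, the median distance was -99 bp, the median score 6.51, the CpG-rich share 80.6%, the NFY share 46.9%, the ETS share 26.4% and the share of genes with a specific promoter peak 4.67%, against 9.45%. Over the whole 300 bp peak the median GC content was 62.3% and the CpG-rich share 80.6%. Within 50 bp of the peak centre the shares fell to 37.4% (Sp1), 28.6% (NFY), 13.6% (ETS), 3.07% (NRF1), 2.398% (YY1) and 1.47% (CRE), since fewer bases were searched. In windows placed by the start site they were 66.2% (Sp1), 44.4% (NFY), 28.5% (ETS), 3.21% (YY1) and 3.74% (CRE). Counting specific peaks of any class, 56.5% of the genes had one. Of the 21 gene lists, 5 left their interval without the dense chromosomes, among them neuronal markers at 0%. The cause of the changes with chromosome was not tested. About 17 tags per peak limit what single scores can show.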
